A study of Mus musculus with 6 samples.

Results

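The imprinted Peg10-Sgce cluster lies near the start of mouse chromosome 6. Its 8 genes were taken by position, in chromosome order Calcr, Tfpi2, Sgce, Peg10, Ppp1r9a, Pon3, Pon2 and Asb4, out of 56953 features in the count table. All 8 had a row that matched their symbol, and all 8 were among the 14550 features that passed the filter on low counts. RNA was sequenced from tailbud tissue, labelled as holding neuromesodermal progenitors, somitic mesoderm and intermediate mesoderm, which was microdissected from mouse embryos at embryonic day 9.5. The groups were 3 wild-type libraries and 3 libraries homozygous for the Fgfr1 FCPG allele (Fgfr1 FCPG/FCPG), a germline allele with point mutations at effector-binding residues of the FGF receptor. The labels state neither strain nor litter, nor whether embryos were pooled, so the p-values rest on the spread between these libraries, which may be partly technical.

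An imprinted gene is transcribed mainly from the allele inherited from one parent. In this cluster a region that is methylated on the maternal chromosome covers the start sites of Peg10 and Sgce, which are transcribed away from each other, and both genes are expressed from the paternal allele. The genes on either side, Calcr, Tfpi2, Ppp1r9a, Pon3, Pon2 and Asb4, are known for a bias towards the maternal allele that depends on the tissue, with the placenta and brain described most often. The counts hold no allele information, so paternal and maternal refer here to this background and not to anything measured.

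The cluster was chosen by results of this same genotype comparison, in which Peg10, Asb4 and Tfpi2 had differed in CPM, and its members were then filled in by position. Adjusted p-values are from the quasi-likelihood test of edgeR over all 14550 tested features with Benjamini-Hochberg adjustment, and a feature is called when its adjusted p is below 0.05. For the cluster these values place each gene against the threshold applied to every feature, and they are a description, not independent evidence. Levels are in CPM, counts scaled to a common library size after TMM, the normalization of edgeR that offsets differences in RNA composition. Values by library are listed as replicates 1, 2 and 3 of a genotype, in that order.

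Peg10, Asb4, Sgce and Ppp1r9a were higher in the mutant, Tfpi2, Pon3 and Pon2 were lower, and Calcr was too low to place. Thus 4 of 8 members were called higher, where 4.25% of all tested features were, and 3 of 8 were called lower, where 3.67% were (7.92% in either direction). Because the cluster was proposed from this comparison, nothing is read from these shares. The same 7 genes had groups that did not overlap, 4 with all mutant libraries higher and 3 with all lower; over all tested features 15.8% and 16.1% did so, or 31.9% in all. Both paternally expressed genes were called higher, with a median log2 fold change of 1.23, while the 6 maternally biased genes split into 2 higher, 3 lower and 1 not called, with a median of -0.03. The median over all tested features was -0.01, and that of the 8 members was 0.62. Without wild-type replicate 2 only Peg10 of the 8 was called, and no member was called lower without wild-type replicate 2 or without wild-type replicate 3. Calls over all features fell in these fits too, to 66 higher and 63 lower without wild-type replicate 2. Without wild-type replicate 3 there were 163 and 151, against 618 and 534 with all libraries. In those fits all 7 genes kept their direction, which groups without overlap all but ensure. Their unadjusted p stayed below 0.05 in edgeR, a description only, since the cluster was chosen from this comparison. DESeq2 and limma-voom on all libraries called the same 4 and 3 genes.

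**Figure D1:**
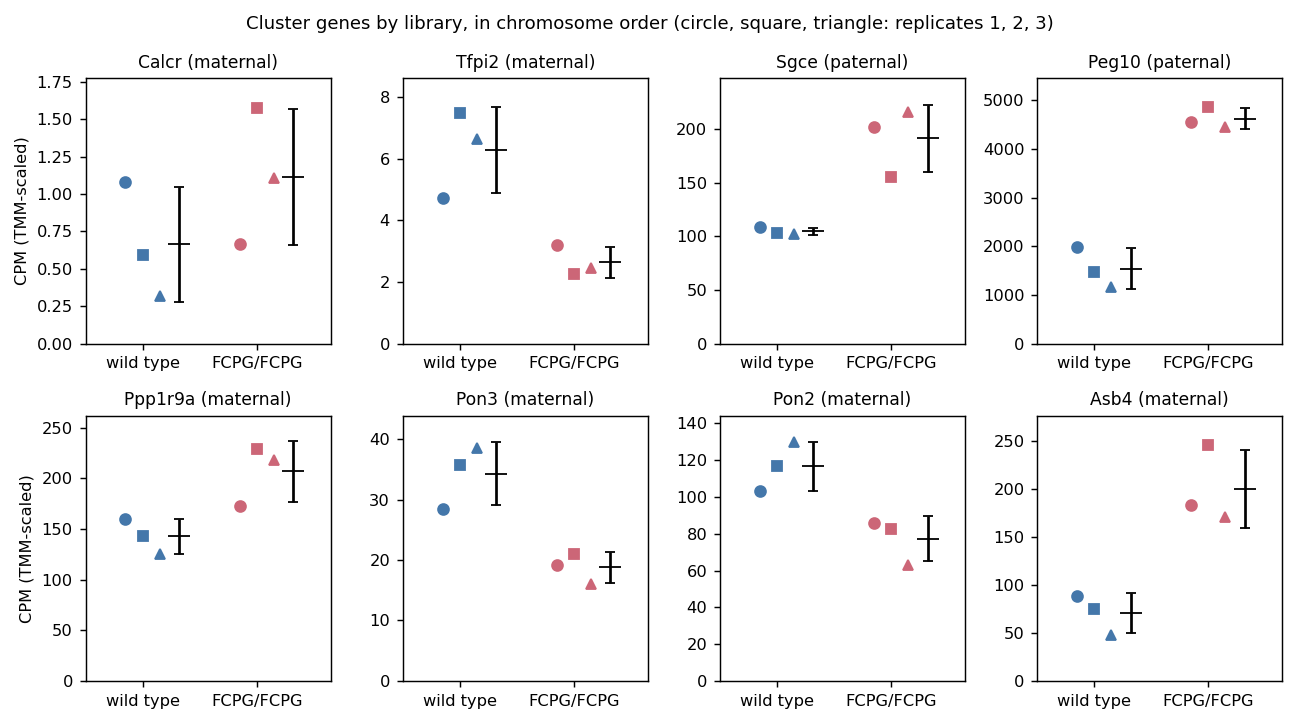
Level of each cluster gene in every library, in CPM on a linear axis that starts at 0, with the allele the gene is known to favour in brackets; blue points are wild type, red points mutant, and the black bar is the mean ± SD of 3 libraries. The groups are apart in every panel except that of Calcr, and Peg10 sits between 1155 and 1989 CPM in blue and between 4458 and 4859 CPM in red.

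Whether the row names could be trusted was examined first, since over much of the table they went against the reads counted in them. Of 4 features named after genes that most cells express strongly, Eef1a1, Hsp90ab1 and Actb stood at 0.030, 0.018 and 3.36 CPM and Gapdh at 209 CPM. Around the cluster, by contrast, 11 broadly expressed genes from Vps50 to Phf14 stood at 40.7 to 533 CPM, and 5 genes restricted to other tissues (Hepacam2, Gngt1, Pon1, Tac1 and Nxph1) at 0.013 to 1.50 CPM. These genes were picked after their values were seen. Along the genome, 858 genes of broadly expressed families were laid out in order, and long runs of detected ones were found on chromosome 4, from Rps20 to Mrpl50, and on chromosome 6, from Vps50 to Nup205. In these runs 25 of 25 such genes reached 10 CPM, against 237 of 833 elsewhere, shares that follow in part from how the runs were chosen. Names are read below inside these runs, and for the Y-linked and mitochondrial genes, which the search did not cover and whose names were not checked in this way. Names in the runs were not checked gene by gene, and they are less sure towards the far end of the chromosome 6 run. Fgfr1 lies outside them, so its level could not be used to check the genotype labels, and a point mutation need not alter it.

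Library totals ran from 16984568 to 27316475 counts. The summed Y-linked genes stood at 584 CPM or more in wild-type replicate 1 and mutant replicates 2 and 3, and at 0.60 CPM or less in the other 3 libraries, so males and females were unevenly spread over the groups. Transcripts of the mitochondrial genome took 10.8% to 13.9% of all reads counted in wild-type libraries and 5.30% to 6.23% in mutant ones. The members' calls were the same 4 and 3 with library sizes that leave those transcripts out. TMM was applied after that change and largely offsets it, so this fit cannot show what part the mitochondrial share has. None of the 13 tailbud and presomitic markers listed lay in a readable run, so the tissue label was not checked. Of 13 primitive erythroid markers 4 could be read (Hemgn, Tspan33, Bpgm and Tmod1), and they summed to 127 to 200.02 CPM in wild-type and 41.4 to 56.3 CPM in mutant libraries, with Bpgm at 0.11 CPM or less in every library. Hemgn and Tspan33 were called lower and made up most of these sums. Tmod1 overlapped, at 6.32 to 16.8 CPM in wild-type and 3.66 to 7.77 CPM in mutant libraries, and was not called (adjusted p = 0.249 by edgeR). Of 13 trophoblast and yolk sac markers only Wnt2 could be read, at 0.43 to 7.79 CPM in wild-type and 22.5 to 37.5 CPM in mutant libraries. It was not called (adjusted p = 0.0584 by edgeR). Of 8 neural markers only Pou3f2 could be read, at 4.23 to 11.7 and 20.8 to 306 CPM. Pou3f2 was called higher (adjusted p = 0.0411 by edgeR). Its call held in 2 of 6 fits without a library, and not with a term for embryo sex or in limma-voom. What part such cells have in the results below was not tested. In bulk tissue, fewer cells of a type and less RNA per cell cannot be told apart.

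Peg10 encodes a protein derived from the gag and pol genes of a retrotransposon and is needed for the placenta to form. It was by far the most abundant member. Its level was 1989, 1467 and 1155 CPM in the wild-type libraries and 4549, 4859 and 4458 CPM in the mutant libraries. Every mutant library was far above the highest wild-type library, and the spread was wider among the wild-type libraries. The log2 fold change was 1.59 ± 0.18 (SE, n = 3 per group), a 3.01-fold difference, with an adjusted p of 0.00458 (edgeR). Among the 14550 tested features it ranked 68th by mean CPM in wild type and 21st in the mutant. Its reads made up 0.153% ± 0.041 of the wild-type and 0.464% ± 0.038 of the mutant counts (SD, n = 3). It was called in all 15 alternative fits, with log2 fold changes from 1.43 to 1.83.

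Sgce encodes epsilon-sarcoglycan, a transmembrane protein of the dystrophin-associated complex, and starts next to Peg10 on the other strand. It stood at 109, 103 and 102 CPM in the wild-type libraries and 202, 156 and 216 CPM in the mutant libraries. Wild-type libraries were tightly grouped, and mutant replicate 2, the highest for Peg10, was the lowest mutant library for Sgce. The log2 fold change was 0.87 ± 0.12 (SE, n = 3 per group) with an adjusted p of 0.00872 (edgeR), and leaving out wild-type replicate 2 ended the call (0.0618). In GENCODE M21 the Sgce and Peg10 models do not overlap.

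The paternally expressed pair did not move in step. Within a library, Peg10 had 18.3, 14.2 and 11.3 CPM for each CPM of Sgce in the wild-type libraries and 22.5, 31.2 and 20.6 in the mutant libraries. The ratio was higher in every mutant library than in any wild-type library, but the range within each group was wider than the gap between the groups. On the log2 scale the mean of Peg10 minus Sgce was 3.84 ± 0.35 for wild-type and 4.61 ± 0.31 for mutant libraries (SD, n = 3), a difference of 0.77 that ran from 0.59 to 0.94 when single libraries were left out. It rests on the same comparison that chose the cluster and was given no test.

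Asb4, at the far end of the cluster, encodes an ankyrin-repeat protein with a SOCS box that recruits substrates to a cullin-RING ubiquitin ligase. It stood at 88.9, 74.9 and 48.01 CPM in the wild-type libraries and 184, 246 and 170.2 CPM in the mutant libraries. The lowest mutant library was well above the highest wild-type library. The log2 fold change was 1.50 ± 0.23 (SE, n = 3 per group), a 2.83-fold difference, with an adjusted p of 0.0106 (edgeR). Only leaving out wild-type replicate 2 ended its call (adjusted p = 0.0657 by edgeR).

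Asb4, known in some tissues for a bias to the opposite parental allele, followed Peg10 more closely across these libraries than Sgce did. Peg10 had 22.4, 19.6 and 24.1 CPM per CPM of Asb4 in the wild-type libraries and 24.8, 19.8 and 26.2 in the mutant libraries, so the groups overlapped. Of the 106 other tested features with a mean of at least 5 CPM on the readable run of chromosome 6, Asb4 had the highest Pearson correlation with Peg10 in log2 CPM over the 6 libraries (r = 0.98). Next came Mios (0.97), Mest (0.96), Bmt2 (0.95) and Prrt4 (0.95), while Ppp1r9a ranked 11th (0.92) and Sgce 14th (0.91). At the other end were Pon3 (-0.96, rank 104) and Pon2 (-0.90, rank 96). These correlations run over the same 6 libraries and contain the difference between the genotypes, so they describe a shared pattern and carry no test. Peg10 and Asb4 were also both among the genes that led to the choice of the cluster, while Sgce was filled in by position. Their closeness may follow in part from that choice.

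Ppp1r9a, the next gene after Peg10, encodes neurabin, which binds actin and protein phosphatase. It stood at 159.6, 143 and 125 CPM in the wild-type libraries and 173, 229 and 218 CPM in the mutant libraries. The groups did not overlap, although wild-type replicate 1 and mutant replicate 1 lay close together. The log2 fold change was 0.54 ± 0.13 (SE, n = 3 per group) with an adjusted p of 0.0452 (edgeR). The call was lost in 4 of 6 fits without a library, with adjusted p up to 0.163, and with a term for embryo sex (0.0539, both by edgeR). Unconfirmed transcript models lie within Ppp1r9a on the same strand in GENCODE M21, so its count is not fully separate from theirs.

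**Figure D2:**
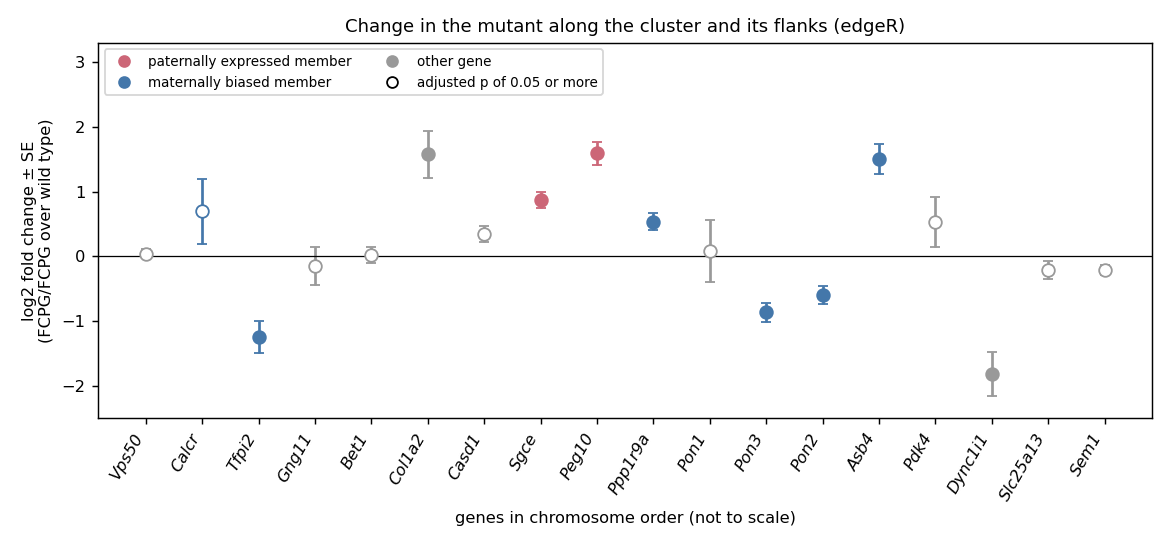
Log2 fold change of the mutant over wild type, with its standard error from the edgeR fit, for the cluster genes and their neighbours in chromosome order (not to scale); red marks paternally expressed members, blue maternally biased members and grey other genes, and open points were not called. Sgce, Peg10 and Ppp1r9a form a run of higher genes in the middle, Pon3 and Pon2 lie below 0, and Asb4 stands at 1.50 beyond them. Among the grey genes Col1a2, at 1.57, and Dync1i1, at -1.82, were called, and the other grey points are open.

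Pon3 and Pon2 encode paraoxonases, enzymes that hydrolyse lactones and protect lipids from oxidation. They lie side by side between Ppp1r9a and Asb4, and both were lower in the mutant. Pon3 stood at 28.5, 35.8 and 38.5 CPM in the wild-type libraries and 19.2, 21.1 and 16.1 CPM in the mutant libraries. Every mutant library was below every wild-type library. Its log2 fold change was -0.87 ± 0.15 (SE, n = 3 per group) with an adjusted p of 0.0149 (edgeR), lost without wild-type replicate 2 (0.0849) or 3 (0.0655). Pon2 stood at 103, 117 and 130.1 CPM in the wild-type libraries and 85.9, 82.7 and 63.3 CPM in the mutant libraries. Here too the groups did not overlap, but the gap was narrow. Its log2 fold change was -0.59 ± 0.14 (SE, n = 3 per group) with an adjusted p of 0.0392 (edgeR), and only leaving out wild-type replicate 1 kept the call among the fits without a library (adjusted p up to 0.147 in the others). A term for embryo sex also ended it (adjusted p = 0.0727 by edgeR). Pon2 overlaps an unconfirmed model on the opposite strand, and the strand setting of the counting was not given in the sources used here. Pon1, the paraoxonase known mainly from liver, lies next to Pon3 and averaged 0.52 CPM.

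The promoter windows of Asb4, Pon3 and Pon2 are shown because these neighbours, all known for a maternal bias in some tissues, differed in opposite directions. RefSeq windows on GRCm38.p6, from 250 bases before to 50 bases after the start, were matched for 6 of the 8 members, all but Peg10 and Sgce. Capitals mark CG dinucleotides, the sites of DNA methylation. The window of Asb4 is the first of its 2 and lies on the plus strand at chr6:5383136-5383435. Those of Pon3 (chr6:5256184-5256483) and Pon2 (chr6:5298291-5298590) lie on the minus strand, and each is written 5′ to 3′ along its gene.
Asb4: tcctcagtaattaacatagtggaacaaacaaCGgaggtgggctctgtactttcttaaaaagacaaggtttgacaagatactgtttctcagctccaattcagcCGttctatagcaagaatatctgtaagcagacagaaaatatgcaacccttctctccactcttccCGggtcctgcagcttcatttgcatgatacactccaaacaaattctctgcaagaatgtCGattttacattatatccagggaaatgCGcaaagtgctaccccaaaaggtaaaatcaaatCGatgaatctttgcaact
Pon3: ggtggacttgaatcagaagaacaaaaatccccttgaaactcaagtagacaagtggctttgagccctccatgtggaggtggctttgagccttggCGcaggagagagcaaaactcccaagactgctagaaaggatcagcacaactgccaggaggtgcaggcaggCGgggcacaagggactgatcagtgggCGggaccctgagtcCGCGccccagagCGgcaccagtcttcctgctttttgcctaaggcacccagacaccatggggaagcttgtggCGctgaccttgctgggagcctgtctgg
Pon2: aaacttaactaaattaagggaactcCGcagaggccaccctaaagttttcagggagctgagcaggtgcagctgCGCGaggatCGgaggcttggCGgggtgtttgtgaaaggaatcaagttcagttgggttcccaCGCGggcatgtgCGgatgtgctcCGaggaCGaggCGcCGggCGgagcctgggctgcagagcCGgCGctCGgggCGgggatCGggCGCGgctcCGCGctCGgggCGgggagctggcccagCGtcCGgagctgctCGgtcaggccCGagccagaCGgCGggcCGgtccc
CG occurs on both strands at the same place, and 94.6% of 32851 windows of this length hold at least 1. The window of Pon2 holds 31 CG dinucleotides, that of Pon3 holds 7 and that of Asb4 holds 6, where the median window holds 7. Pon2 and Pon3, both lower in the mutant, differ in CG content, and Pon3 and Asb4, which moved apart, are alike in it. The other window of Asb4, not shown, holds 8 CG dinucleotides. Any part of CG content in these differences was not tested, and DNA methylation was not measured. GGGCGG, read on both strands, is found in the windows of Pon2 and Pon3 and in 35.7% of all windows. CCAAT, likewise on both strands, is found in that of Asb4 and in 37.4% of all, but not in the other window of Asb4. TATAAA, held by 13.6%, is in none of the 3. GGGCGG contains a CG and so overlaps the capitals. These matches are descriptions of the letters, not binding sites.

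The opposite moves can also be written as ratios within a library. Asb4 had 0.86, 0.64 and 0.37 CPM per CPM of Pon2 in the wild-type libraries and 2.14, 2.97 and 2.69 in the mutant libraries. The ratio was higher in every mutant library than in any wild-type library, which follows from the opposite, non-overlapping differences of both genes. Like Peg10 to Sgce, it rests on the comparison that chose the cluster and was given no test. These ratios are not scaled to gene length, so only their change between libraries can be read. Pon2 to Pon3, in contrast, stood at 3.62, 3.26 and 3.38 in the wild-type libraries and 4.47, 3.93 and 3.94 in the mutant libraries, a small shift without overlap. Summed over the 6 maternally biased genes, the level was 371 ± 19.6 CPM for wild-type and 506 ± 66 CPM for mutant libraries (SD, n = 3). Within this sum Asb4 went from a mean of 70.6 to 199.8 CPM and Ppp1r9a was higher too, while Tfpi2, Pon3 and Pon2 were lower. The sum of Peg10 and Sgce went from 1642 ± 424 to 4813 ± 179 CPM, and Peg10 alone made up 71.9% to 80.1% of the cluster's CPM in wild-type and 86.6% to 87.2% in mutant libraries.

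**Figure D3:**
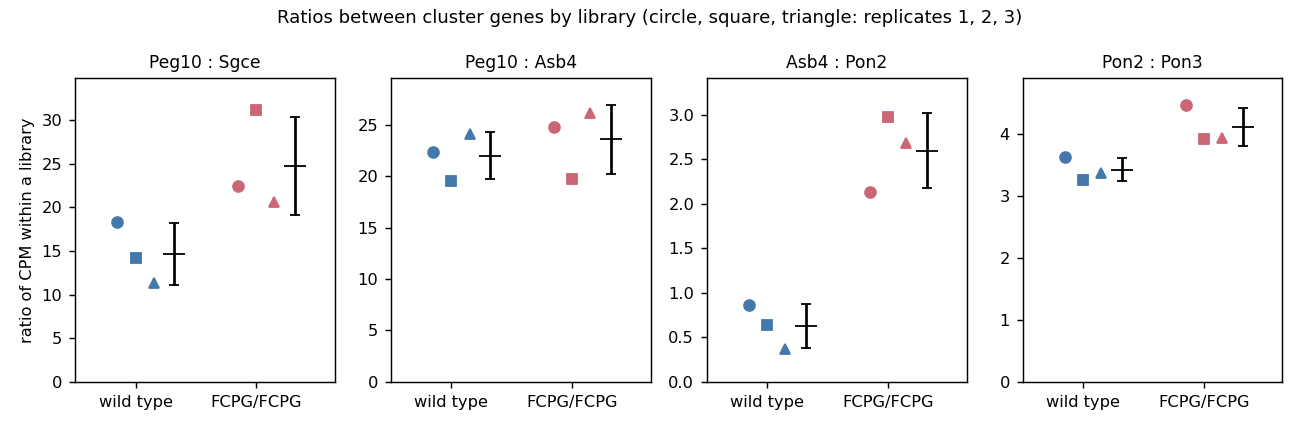
Ratios of CPM between pairs of cluster genes within each library, on linear axes that start at 0; blue points are wild type, red points mutant, and the black bar is the mean ± SD of 3 libraries. Peg10 to Asb4 overlaps between the groups, whereas Asb4 to Pon2 lies between 0.37 and 0.86 in the wild-type libraries and between 2.14 and 2.97 in the mutant libraries. The ratios are not scaled to gene length.

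At the near end of the cluster, Tfpi2 encodes a Kunitz-type inhibitor of serine proteases found in the extracellular matrix. It stood at 4.73, 7.47 and 6.64 CPM in the wild-type libraries and 3.20, 2.25 and 2.44 CPM in the mutant libraries, from 40 to 203 counts per library. All mutant libraries were below all wild-type libraries. The log2 fold change was -1.25 ± 0.25 (SE, n = 3 per group) with an adjusted p of 0.0236 (edgeR). It was lost without wild-type replicate 2 (0.119), wild-type replicate 3 (0.0888) or mutant replicate 2 (0.0527, all by edgeR). Calcr, the calcitonin receptor, was close to the limit of detection, with 29, 16 and 6 counts in the wild-type libraries and 16, 28 and 29 in the mutant libraries. Its groups overlapped, and its log2 fold change of 0.70 ± 0.50 (SE, n = 3 per group) had an adjusted p of 0.425 (edgeR), so a difference was not detectable at this depth. The microRNA genes Mir489 and Mir653 lie inside Calcr, and polyadenylated RNA does not measure mature microRNAs.

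Levels of different genes were compared per kilobase of exon, with lengths from GENCODE M21 that merge all isoforms and so understate genes with many. In wild type Peg10 came first at 231 ± 63.2 CPM per kb (SD, n = 3), far above the rest. Asb4 (18.0 ± 5.28) and Pon2 (15.9 ± 1.84) followed and did not differ beyond their spread. Neither did Pon3 (10.1 ± 1.54), Sgce (9.86 ± 0.32) and Ppp1r9a (9.81 ± 1.18), while Tfpi2 (3.59 ± 0.80) and Calcr (0.17 ± 0.098) came last. In the mutant the order in CPM per kb was Peg10 (693 ± 31.5), Asb4 (50.8 ± 10.2), Sgce (18.0 ± 2.97), Ppp1r9a (14.2 ± 2.06), Pon2 (10.5 ± 1.66), Pon3 (5.55 ± 0.74), Tfpi2 (1.51 ± 0.29) and Calcr (0.29 ± 0.12). Sgce and Ppp1r9a, and Ppp1r9a and Pon2, lay close enough there that their ranges of mean ± SD touched or nearly touched.

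Most other genes between and beside the members were not called. Of 16 such genes from Vps50 to Asns, 15 were tested, and 1 was called higher (Col1a2) and 2 lower (Dync1i1 and Dlx6), where 7.92% of all tested features were called in either direction. Their median log2 fold change was 0.02, and the groups did not overlap in 1 with the mutant higher and 3 with it lower (Dync1i1, Dlx6 and Sem1), against 31.9% of all tested features. Casd1, the sialic acid O-acetyltransferase gene that neighbours Sgce, stood at 378, 338 and 331 CPM in the wild-type libraries and 499.5, 469.9 and 364 CPM in the mutant libraries. These groups overlapped, and its log2 fold change of 0.35 ± 0.12 (SE, n = 3 per group) had an adjusted p of 0.119 (edgeR). Vps50, Bet1 and Gng11, which lie around Calcr and Tfpi2, had log2 fold changes of 0.04, 0.02 and -0.15, none called. The calls of Col1a2 and Dlx6 were each lost in 4 of 6 fits without a library, and that of Dync1i1 in 2. Col1a2 and Dlx6 also lost theirs with the term for embryo sex and in limma-voom, and all 3 calls were lost when a minimum change of 0.5 on the log2 scale was tested. The log2 ratio of mean CPM for Col1a2 was 2.16 within males and 0.39 within females. Each ratio rests on a single library on one side. For males it was wild-type replicate 1 at 167 CPM, and for females mutant replicate 1 at 283 CPM. A difference between the sexes was not tested.

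Of 40 other imprinted genes listed, 3 lay on a readable run, all near the far end of the chromosome 6 run where names are less sure. Mest, a paternally expressed gene for a hydrolase-like protein, stood at 3276, 2519 and 2343 CPM in the wild-type libraries and 6121, 4554 and 4945 CPM in the mutant libraries, without overlap. Its log2 fold change was 0.94 ± 0.15 (SE, n = 3 per group, adjusted p = 0.0124 by edgeR), a call lost without wild-type replicate 2 or 3. Copg2 and Klf14, with log2 fold changes of 0.34 and 0.42, were not called (adjusted p = 0.0584 and 0.489 by edgeR), although every mutant library was above every wild-type library in both. The same held for 15.8% of all tested features. Copg2 was called in 2 of the 9 other fits that hold all libraries, and Klf14 averaged 0.80 CPM.

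Embryo sex and the order of the wild-type libraries moved with part of these values. Within males (wild-type replicate 1 against mutant replicates 2 and 3) the log2 ratio of mean CPM was 1.23 for Peg10, 0.78 for Sgce, 0.49 for Ppp1r9a and 1.23 for Asb4, and -1.01, -0.62 and -0.50 for Tfpi2, Pon3 and Pon2. Within females (wild-type replicates 2 and 3 against mutant replicate 1) it was 1.79, 0.98, 0.37 and 1.58, and -1.14, -0.95 and -0.52, for the same genes in the same order. Each of the 7 kept its direction in both sexes, which had to be so because their groups did not overlap. A group of 1 library allows no test. The male wild-type library was also the one nearest the mutants in all 7 of these genes, as it was for 59.7% of the 1152 called features, and wild-type replicate 3 was the farthest in 6 of 7 (50.3% of called features). The place of replicate 1 and its sex cannot be told apart, since it was the only male wild-type library. Replicates 2 and 3 were both female and still differed, at 1467 and 1155 CPM for Peg10 and 74.9 and 48.01 CPM for Asb4.

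The authors' deposited table gave the same picture for the members. In it the log2 fold change was 1.60 for Peg10, 1.51 for Asb4, 0.88 for Sgce, 0.54 for Ppp1r9a, -0.59 for Pon2, -0.86 for Pon3 and -1.24 for Tfpi2, each with an adjusted p below 0.05, and 0.73 for Calcr with an adjusted p of 0.521. That table comes from the same counts and adds no libraries.

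**Figure D4:**
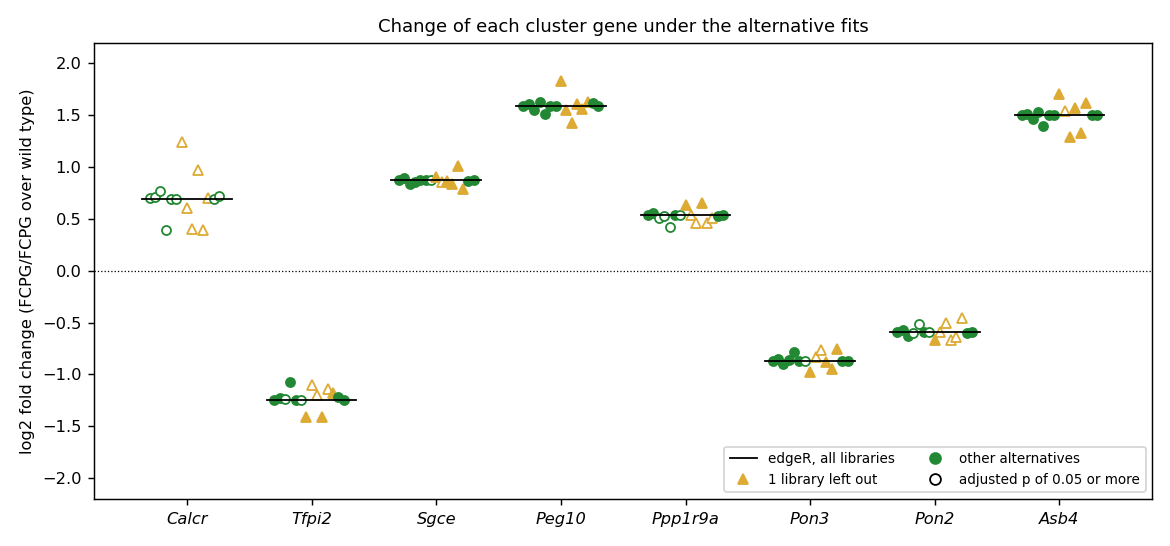
Log2 fold change of each cluster gene under the alternative fits; the black line is the edgeR fit with all libraries, yellow triangles leave out 1 library, green circles are the other alternatives, and open symbols have an adjusted p of 0.05 or more. No gene crosses 0, and only Peg10 has no open symbol.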

How the data were processed

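Tailbud RNA from 6 libraries was analysed, 3 per genotype. The kit keeps strand, per the labels' protocols. Bowtie, the counter featureCounts, build mm39 and both DESeq2 and DESeq are listed in the submitters' processing notes, while versions, annotation and strand setting are not given in the sources used here. Whole-number raw counts per gene were deposited. A second deposited table holds the authors' DESeq2 comparison: a mean signal (normalized counts), log2 fold changes with errors, a Wald score, and each p-value with its adjustment, per the file headers. Count columns carry 10-5 in their names, unexplained, and the labels' day 9.5 is used.

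IDs were cut to 18 characters, and 52029 of 56953 matched a symbol. Row names were checked along GENCODE M21 order (an older build, GRCm38) with a hidden Markov model over 858 broadly expressed genes (detection at 10 CPM, chances 0.95 and 0.25, switch 0.03, runs of at least 6 with a posterior above 0.95), settings taken from earlier work on these data. The members, lists and named genes (all 8 members, interval genes, readable imprinted genes, the 5 features most like Peg10) were chosen with earlier results of these data known. Libraries were compared in edgeR 4.0.16 (R 4.3.3) with filterByExpr, TMM and the quasi-likelihood F test over 14550 features, tested on simulated data. Standard errors come from the F statistic. CPM used for correlations and log2 differences had a prior count of 2. Alternatives were DESeq2 size factors, DESeq2 1.42.0, limma-voom (limma 3.58.1), filters, a replicate block, a sex term, library sizes without mitochondrial transcripts, a minimum log2 fold change of 0.5, and each library left out.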

Additional observations from a re-analysis of the deposited data

How the results depend on the processing

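All 8 members kept their direction in all alternatives that could be fitted, and Calcr was never called. For members whose groups did not overlap, the direction was close to given in advance. The filter of 5 CPM in 3 libraries removed Calcr and Tfpi2, so neither has a value there. Ppp1r9a lost its call in that fit (adjusted p = 0.0592 by edgeR), and 3 higher and 2 lower members remained called. The 4 higher and 3 lower members became 2 and 0 with a minimum log2 fold change of 0.5, which asks for more (3 and 2 at an unadjusted p below 0.05 by edgeR). Leaving out single libraries gave 1 to 4 higher and 0 to 3 lower members, with 4 and 3 at an unadjusted p below 0.05 in each such fit. The unadjusted values describe genes of a cluster chosen from this comparison and do not make up for lost calls. The median log2 fold change of the members, 0.62, was 0.41 with the term for embryo sex and ran from 0.43 to 0.77 without single libraries. Over all features, the 618 higher and 534 lower became 1352 and 1145 with no low-count filter, 273 and 264 with the sex term, 94 and 122 against the fold minimum, and 967 and 796 in the DESeq2 Wald test. They ran from 66 to 783 higher and from 63 to 565 lower without single libraries, lowest without wild-type replicate 2. Fits without a library hold fewer samples; otherwise the cause was not tested. Deviations of same-numbered libraries from their group means had correlations of -0.23, -0.01 and -0.01, and 0 of 6 libraries correlated best with their own number, so the replicate numbers give no sign of pairing. With the replicate block, 3 members were higher and 1 was lower, with Pon3 still called and Tfpi2 (adjusted p = 0.0516 by edgeR), Ppp1r9a and Pon2 not. Calcr, at 6 to 29 counts per library, is limited by depth.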
